A study of Mus musculus with 34 samples.

Results

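The granule proteases of mast cells (MCs) are measured here as 10 genes, taken as a list of names from all 25853 genes in the tables: *Mcpt4*, *Cma1*, *Tpsb2*, *Cpa3*, *Tpsab1*, *Ctsg*, *Mcpt1*, *Mcpt2*, *Mcpt8* and *Mcpt9*. Of these 10 genes, 9 had a row in the tables, whereas *Mcpt1* had none and was not analysed here. Single MCs of ear skin came from 3 WT mice (C57BL/6J Mcpt5 Cre R26LSLYFP) and 3 *Tln1* KO mice (C57BL/6J Mcpt5-Cre Tln1fl/fl R26LSLYFP), which were littermate males aged 7 weeks. The authors state that Mcpt5-Cre Tln1fl/fl mice and their YFP reporter crosses had an albino C57BL/6J background, and all other strains a C57BL/6J background. Both groups carried the Cre transgene, driven by the *Mcpt5* promoter and thus by regulatory sequence of the member gene *Cma1* (Mcpt5 is another name of *Cma1*), and a YFP reporter that Cre switches on. The cells were sorted as CD45+ Lin- YFP+ cells, so a cell had to have used that promoter to enter the sort. A further 4 Smoothmuscle libraries held CD45- GFP+ ear skin cells of C57BL/6J Tg Myh11GFP/+ mice, a sort for vascular smooth muscle cells that also takes in some pericytes and fibroblasts. The mice of the study were 7 to 12 weeks old, and since the number of Myh11-GFP mice was not given in the sources used here, these libraries were treated as 1 sample. All cells were measured by mCEL-Seq2, which tags the 3′ end of each captured RNA molecule with a cell barcode and a unique molecular identifier (UMI). Each molecule is therefore counted once whatever its length, and levels of different genes are compared below without division by length.

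MCs store serine proteases and 1 carboxypeptidase in their granules, bound to the proteoglycan serglycin, and release them on activation. Chymases cut proteins after bulky hydrophobic residues, tryptases cut after lysine or arginine and act as tetramers, and carboxypeptidase A3 removes residues from the C-terminal end. Connective tissue MCs of mouse skin are known for *Mcpt4*, *Cma1*, *Tpsb2* and *Cpa3*, whereas *Mcpt1* and *Mcpt2* are markers of mucosal MCs, *Mcpt8* is a marker of basophils, and *Mcpt9* has been described in MCs of the uterus. *Ctsg* encodes cathepsin G, which is also stored by neutrophils.

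Of the 10 genes, 7 lie in the chymase locus on chromosome 14 of GRCm38 (GENCODE M21). *Cma1* is at chr14:55941451-55944675 on the minus strand, *Mcpt1* at chr14:56017971-56020384 on the plus strand, *Mcpt9* at chr14:56026864-56030495 (minus), *Mcpt2* at chr14:56042041-56044642 (plus), *Mcpt4* at chr14:56059629-56062313 (minus), *Mcpt8* at chr14:56082166-56085273 (minus) and *Ctsg* at chr14:56099881-56102574 (minus). Both tryptase genes lie on chromosome 17, *Tpsab1* at chr17:25343245-25345562 (minus) and *Tpsb2* at chr17:25366305-25369098 (plus). *Cpa3* lies alone at chr3:20215620-20242181 (minus). All are protein-coding genes, and the counts cover whole genes.

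The coding sequences show which proteases are near copies of each other, which bears on whose reads could be told apart. The following windows of 63 bases, read 5′ to 3′ from the GENCODE M21 coding sequences, surround the codon of the catalytic serine, which is in capitals. *Cma2*, a neighbouring gene that is no member of the list, is shown because its window is the same as that of *Mcpt9* in 63 of 63 bases.
Mcpt4: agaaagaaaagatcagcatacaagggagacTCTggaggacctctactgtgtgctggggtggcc
Cma1: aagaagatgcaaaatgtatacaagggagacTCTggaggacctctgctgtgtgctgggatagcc
Mcpt9: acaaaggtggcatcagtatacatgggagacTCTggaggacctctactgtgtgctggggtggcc
Cma2: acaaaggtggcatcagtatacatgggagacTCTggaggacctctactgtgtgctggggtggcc
Mcpt2: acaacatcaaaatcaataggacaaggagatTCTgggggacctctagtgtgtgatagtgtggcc
Mcpt8: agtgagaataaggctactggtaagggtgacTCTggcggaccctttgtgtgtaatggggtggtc
Ctsg: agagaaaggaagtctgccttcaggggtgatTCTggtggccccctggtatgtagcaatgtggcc
Tpsb2: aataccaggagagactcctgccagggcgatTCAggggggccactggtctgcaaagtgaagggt
Tpsab1: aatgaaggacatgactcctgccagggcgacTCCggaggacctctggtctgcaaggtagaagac
Of the windows shown, those of *Mcpt4*, *Cma1*, *Mcpt9* and *Cma2* were the closest to each other. The windows of *Tpsb2* and *Tpsab1* had 44 of 63 bases in common, as did those of *Mcpt4* and *Mcpt2*. The window of *Mcpt4* had 55 of 63 bases in common with that of *Mcpt9* and 50 of 63 with that of *Cma1*, against 32 of 63 with that of the tryptase gene *Tpsb2*. Over the whole aligned coding sequence, *Mcpt4* was 86.7% identical to *Mcpt1*, 84.01% to *Mcpt9*, 79.3% to *Mcpt2* and 64% to *Cma1*. Both tryptase genes were 67.99% identical to each other. The authors discarded reads that matched more than 1 place, so stretches shared between genes could not be counted. In the last 500 bases of the transcript, where this method reads, 51.2% of the stretches of 50 bases of *Mcpt9* were also present in *Cma2* or *Mcpt4*. The share was 12.9% for *Mcpt4* (with *Cma2* and *Mcpt9*), 12.4% for *Cma1* (with the predicted gene *Gm48934*) and 0% for *Tpsb2*, *Tpsab1*, *Cpa3*, *Ctsg*, *Mcpt1*, *Mcpt2* and *Mcpt8*. The levels of *Mcpt9* and, to a smaller extent, *Mcpt4* and *Cma1* may thus be uncertain in this respect. These stretches were sought in GENCODE M21, whereas the authors mapped to another release of the gene models. Whether that release holds the same shared stretches was not checked.

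The regions upstream of the start site are shown for the 3 members whose levels varied together most between cells. Each sequence is the 250 bases before the RefSeq start on GRCm38.p6, read 5′ to 3′ on the strand of the gene, from chr14:56062311-56062560 for *Mcpt4*, chr14:55944676-55944925 for *Cma1* and chr3:20242182-20242431 for *Cpa3*, all on the minus strand. Capitals mark GATAA on either strand (TTATC where it lies on the other strand) and CANNTG, the letters bound by GATA and bHLH factors.
Mcpt4: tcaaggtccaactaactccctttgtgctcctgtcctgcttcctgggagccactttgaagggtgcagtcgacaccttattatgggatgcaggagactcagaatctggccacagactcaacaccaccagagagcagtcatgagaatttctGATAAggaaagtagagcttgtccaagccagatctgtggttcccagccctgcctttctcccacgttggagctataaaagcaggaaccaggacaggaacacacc
Cma1: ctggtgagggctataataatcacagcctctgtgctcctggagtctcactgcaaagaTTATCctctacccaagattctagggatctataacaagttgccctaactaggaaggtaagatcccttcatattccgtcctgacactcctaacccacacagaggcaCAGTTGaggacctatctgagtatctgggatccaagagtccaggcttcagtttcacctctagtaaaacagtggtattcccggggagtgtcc
Cpa3: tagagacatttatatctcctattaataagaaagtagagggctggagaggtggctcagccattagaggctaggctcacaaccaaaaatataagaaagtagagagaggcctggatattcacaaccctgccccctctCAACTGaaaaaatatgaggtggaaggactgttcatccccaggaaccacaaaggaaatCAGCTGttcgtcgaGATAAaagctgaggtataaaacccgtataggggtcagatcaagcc
All 3 windows held 1 match to GATAA, and so did 22.6% of 32851 promoter windows of this length in at least 1 copy. CANNTG had 0 matches in the window of *Mcpt4*, 1 in that of *Cma1* and 2 in that of *Cpa3*, and 66.2% of all windows held it. The 3 sequences were 46.2% to 49.3% identical in pairs. RefSeq windows were matched for 7 of the 10 members, and those of *Ctsg*, *Mcpt8* and *Mcpt9* held 0 matches to GATAA and 4, 3 and 1 matches to CANNTG. The window of *Mcpt1*, the gene without a row, held 1 match to GATAA and 0 to CANNTG, and was 81.01% identical to that of *Mcpt4*.

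Cells with over 1000 transcripts were used, which gave 338, 294 and 272 MCs of WT mice 1, 2 and 3, 285, 354 and 934 MCs of *Tln1* KO mice 1, 2 and 3, and 330 Smoothmuscle cells. Predicted genes named Gm plus a number took 14.2% to 58.01% of the transcripts of a mouse, so all levels are given per 10000 transcripts outside these genes, of which there were 699401 to 5238330 per mouse. *Tln1*, the targeted gene, had levels of 4.51, 5.92 and 6.71 for WT 1, 2 and 3 and of 5.57, 4.33 and 3.63 for *Tln1* KO 1, 2 and 3. These ranges overlapped, and since counts per gene do not show the deleted exons, they do not check the genotype labels. MC markers other than proteases (8 genes such as *Kit* and *Hdc*) summed to 121.9 to 167.97 per 10000 in the MC mice and 0.194 in Smoothmuscle cells. In the latter, the smooth muscle genes *Acta2* and *Myh11* were at 40.07 and 17.9, the pericyte gene *Rgs5* at 113.7 and the fibroblast markers together at 187.4 per 10000. In the MC mice, macrophage markers summed to 1.44 to 40.4, keratinocyte markers to 0.0769 to 30.1 and fibroblast markers to 0.976 to 82.7 per 10000, with WT mouse 2 highest for all 3 lists, and the fibroblast sums of the *Tln1* KO mice (0.976 to 10.5) all below those of the WT mice (20.1 to 82.7). Library 8 of *Tln1* KO mouse 3 stood apart, since 1 barcode with 0.269% protease transcripts held 44.8% of its transcripts. In all, 4 barcodes with over 50000 transcripts and 9 MC barcodes outside the barcode set of their library passed, and values without them are given where named ("strict cells"). All libraries use sets of 96 fixed well barcodes, so a barcode within the sets of several libraries does not by itself mark the same cell. The 9 MC barcodes outside the set of their library had 1015 to 1660 transcripts each. Each repeated a barcode with 94842.5 transcripts in library 3 of WT mouse 2 or 431991 in library 8 of *Tln1* KO mouse 3. Whether these 9 barcodes held separate cells was not tested.

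The 9 measured proteases together made up 7.07%, 7.03% and 7.75% of the transcripts outside Gm genes for WT 1, 2 and 3 and 7.76%, 6.38% and 5.64% for *Tln1* KO 1, 2 and 3. *Mcpt4*, the chymase gene held to be the closest in function to human chymase, was the most abundant gene of all genes outside Gm and mitochondrial genes in each of the 6 mice. Its level was 293.8, 349.3 and 389.8 per 10000 for WT 1, 2 and 3 and 357.7, 287.8 and 230.7 for *Tln1* KO 1, 2 and 3. *Cpa3*, the carboxypeptidase gene, reached 154.6, 132.9 and 138.3 in the WT mice and 152.5, 125.5 and 106.3 in the *Tln1* KO mice. *Cma1*, which encodes the chymase MCPT5 with its elastase-like cutting in mice, reached 149.7, 126.9 and 131.3 in the WT mice and 125.9, 126.4 and 132.8 in the *Tln1* KO mice. *Cma1* had the narrowest spread of all members, with a coefficient of variation over the 6 mice of 6.85%, against 18.2% for *Mcpt4* and 13.3% for *Cpa3*. *Tpsb2*, the gene of the tryptase MCPT6, lay at 77.9, 71.9 and 85.1 in the WT mice and at 97.3, 67.9 and 67.2 in the *Tln1* KO mice. Among genes outside Gm and mitochondrial genes, *Cma1* ranked 2 to 3, *Cpa3* 2 to 4 and *Tpsb2* 4 to 5 over the mice.

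The other 5 measured members were less abundant by wide margins. *Tpsab1*, the gene of the tryptase MCPT7, had levels of 25.9, 18.5 and 25.1 in the WT mice and 38.2, 24.7 and 21.03 in the *Tln1* KO mice, and ranked 11 to 32. C57BL/6 mice are known to carry a *Tpsab1* allele with a disrupted splice site that yields no MCPT7 protein, and counts of 3′ ends do not show how these transcripts were spliced. *Ctsg* had 4.47, 3.15 and 4.72 in the WT mice and 3.93, 4.53 and 5.50 in the *Tln1* KO mice, and ranked 213 to 431. *Mcpt9* had 0.347, 0.113 and 0.143 in the WT mice and 0.551, 0.484 and 0.397 in the *Tln1* KO mice. *Mcpt8*, the basophil protease gene, had 0.185, 0.157 and 0.243 in the WT mice and 0.218, 0.272 and 0.113 in the *Tln1* KO mice. *Mcpt2*, of mucosal MCs, had 0.0347, 0.131 and 0.0572 in the WT mice and 0.0385, 0.0764 and 0.130 in the *Tln1* KO mice, from 102.02 transcripts in all. The least abundant of the 9 genes were thus found at less than 1 transcript per 10000.

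In the order of the mean levels, *Mcpt4* lay above *Cpa3* in 6 of 6 mice, by 1.90 to 2.82 times. *Cpa3* and *Cma1* were next, and their order changed between mice, with *Cpa3* higher in 4 of 6 and a ratio between 0.801 and 1.21. *Cma1* lay above *Tpsb2* in 6 of 6 mice (1.29 to 1.97 times), *Tpsb2* above *Tpsab1* (2.55 to 3.88 times), *Tpsab1* above *Ctsg* (3.82 to 9.73 times) and *Ctsg* above *Mcpt9* (7.12 to 33.03 times). *Mcpt9* lay above *Mcpt8* in 4 of 6 mice and *Mcpt8* above *Mcpt2* in 5 of 6, so these neighbours did not separate beyond the spread between mice. The order was the same in strict cells.

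**Figure D1:**
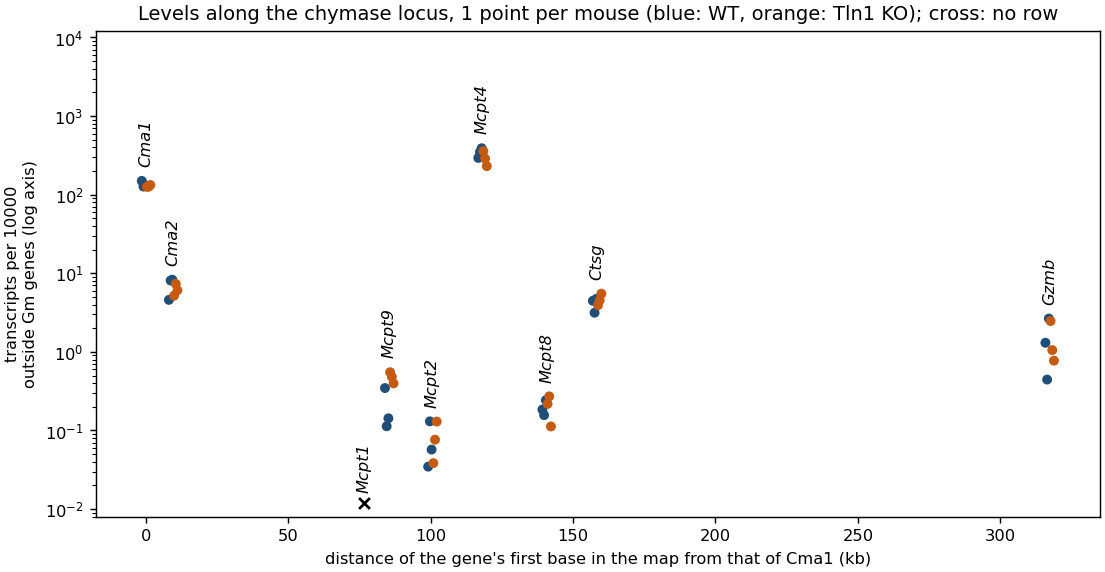
Levels of the chymase locus genes by mouse, with the distance of each gene from *Cma1* along chromosome 14 in kb on the x axis and transcripts per 10000 outside Gm genes on a log y axis. Points are mice (blue WT, orange *Tln1* KO) and the cross marks *Mcpt1*, which had no row. *Mcpt4*, at 230.7 to 389.8, stands between *Mcpt2* and *Mcpt8*, which are all below 1.

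Within the chymase locus, *Cma1* and *Mcpt4* stood apart in level from the genes around them. *Mcpt4* lies 14986 bases from *Mcpt2* and 19852 bases from *Mcpt8*, and both of these neighbours were below 1 per 10000 in all 6 mice. *Cma2*, the neighbour of *Cma1*, had 4.59 to 8.28 and *Gzmb*, the granzyme B gene at the far end of the locus, 0.445 to 2.66 per 10000. *Gzmc*, *Gzmd* and *Gzmf* had 1, 3 and 1 transcripts in all MCs together, and *Mcpt1*, *Gzme*, *Gzmg* and *Gzmn* had no row and were not analysed here. On chromosome 17, *Tpsg1*, which starts just after the end of *Tpsb2* and encodes a membrane-anchored tryptase, had 5.58 to 8.12 per 10000. Of the other genes listed for that locus, *Prss34*, *Prss27* and *Prss28* had 5, 16 and 1 transcripts, and *Prss29* and *Prss33* had no row. The carboxypeptidase A genes *Cpa4* and *Cpa6* had 4 transcripts each in all MCs.

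The Smoothmuscle cells served as another cell type to compare with for these genes. Among their 1440270 transcripts outside Gm genes there was 1 *Cpa3* transcript, and 0 transcripts of the other 8 measured members. A count of 0 allows up to 0.0208 per 10000 (3 counts of the total). Against this limit, the lowest MC mouse was at least 11075-fold higher for *Mcpt4*, 6044-fold for *Cma1*, 3228-fold for *Tpsb2*, 890-fold for *Tpsab1* and 151.2-fold for *Ctsg*. For *Mcpt9*, *Mcpt8* and *Mcpt2* the bounds were 5.44-fold, 5.41-fold and 1.66-fold, since the MCs themselves had few transcripts of these genes. The level of *Cpa3* in Smoothmuscle cells was 0.00694 per 10000 (exact 95% Poisson interval 0.000176 to 0.0387), against at least 106.3 in MC mice. For each member other than *Cpa3*, 0 of 330 Smoothmuscle cells had a transcript, which allows a share of cells with a UMI of up to 0.909% and sets no limit on cells that express the gene at a lower level. Of these cells 8 had barcodes outside the set of their library, and without them there were 0 of 322. These intervals and limits cover counting error only, and no test was made because Smoothmuscle is 1 sample. The Smoothmuscle cells had a median of 3904.5 UMIs outside Gm genes and the MCs 3295, so they were not the shallower cells. The libraries of both kinds of cells also differed under barcodes that held no cell, with 375 *Mcpt4* transcripts per 10000 in the MC libraries and 0 in the Smoothmuscle libraries. The bounds above thus do not compare the MCs with the unused barcodes of their own libraries. There *Mcpt9*, *Mcpt8* and *Mcpt2* were at 0.264, 0.0329 and 0.231 per 10000.

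**Figure D2:**
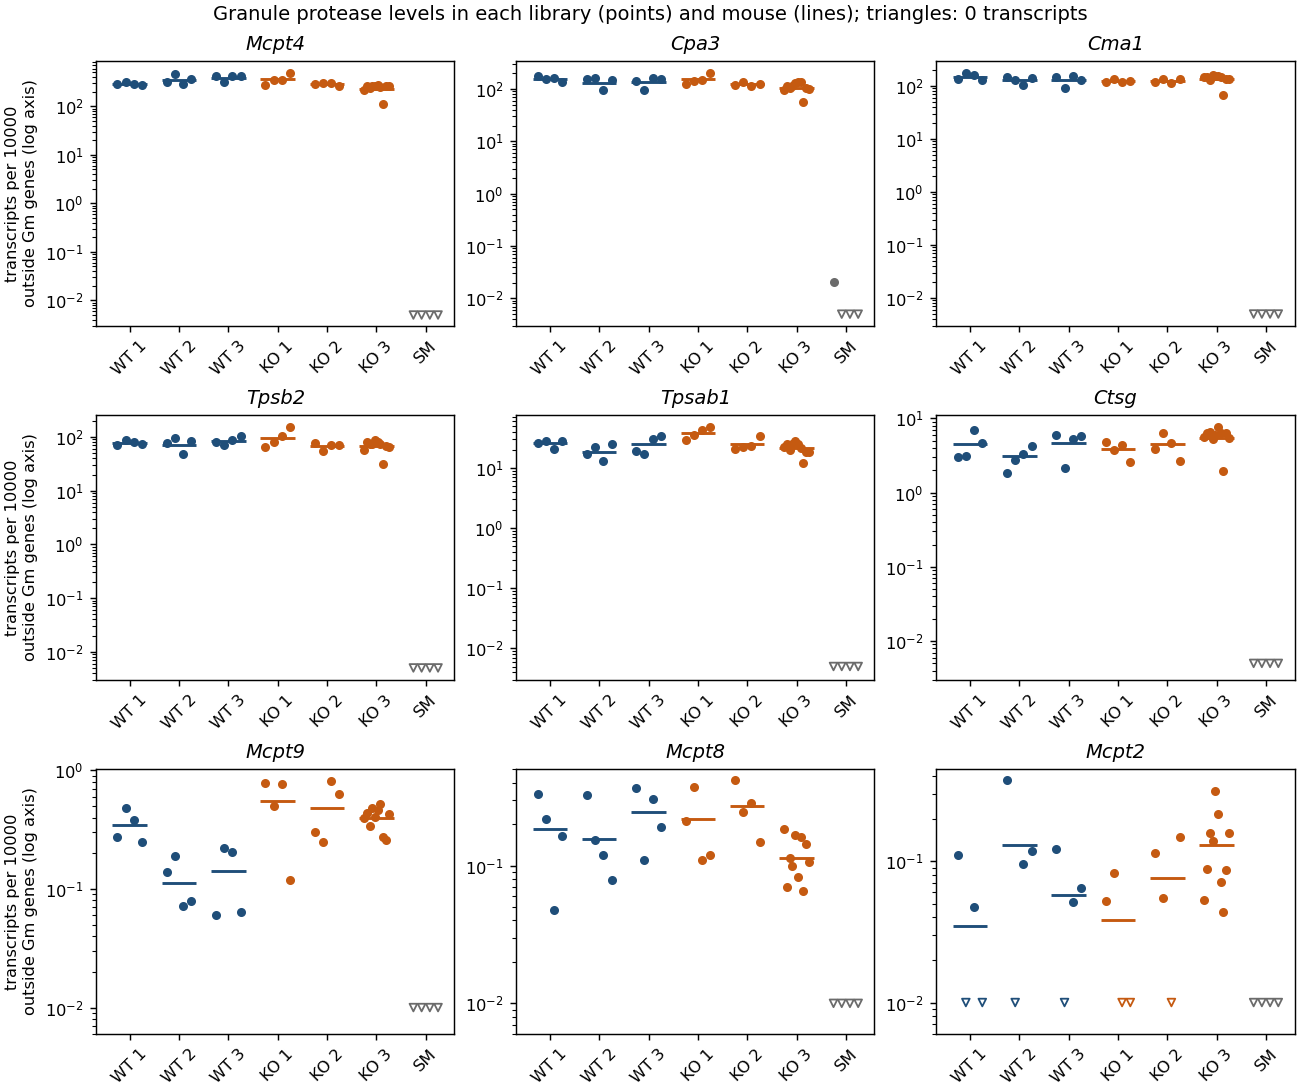
Levels of the 9 measured proteases in each library, as transcripts per 10000 outside Gm genes on log y axes. Points are libraries, lines the level of the mouse, and open triangles libraries with 0 transcripts (SM, Smoothmuscle). The low point of *Tln1* KO mouse 3 for *Mcpt4*, *Cma1* and *Cpa3* is library 8, and 3 of 4 Smoothmuscle libraries for *Cpa3* and 4 of 4 for the other genes had 0 transcripts.

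The libraries of a mouse hold different cells of that mouse. The highest library was 1.19 times the lowest for *Mcpt4* in WT mouse 1, 1.59 times in WT mouse 2 and 1.35 times in WT mouse 3. In the *Tln1* KO mice the ratio was 1.75 in mouse 1, 1.14 in mouse 2 and 2.43 in mouse 3. The summed share of the proteases lay between 6.26% and 6.53% in the 4 libraries of *Tln1* KO mouse 2, the closest of the 6 mice. In *Tln1* KO mouse 3 it ranged from 2.84% in library 8 to 6.74%, with a median of 6.14% over the 10 libraries.

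The comparison of genotypes asks whether loss of talin-1, which links integrins to the actin skeleton, goes with another level of the proteases. None of the 8 members that could be tested passed the comparison of 3 *Tln1* KO with 3 WT mice, at an adjusted p under 0.05 in limma with Benjamini-Hochberg adjustment over 9233 genes. In this comparison 0 of the 9233 genes were called (0%), and 481 (5.21%) fell under 0.05 before adjustment, with 229 below 0 and 252 above 0 in log2 fold change. Of the members, *Mcpt9* alone was among the 481. *Mcpt1* had no row and *Mcpt2* had at least 10 transcripts in only 2 mice, under the filter of 10 transcripts in 3 mice, so neither was tested. Among the 16184 genes under this filter, 3.04% had all *Tln1* KO mice above all WT mice, and *Mcpt2* was not one of them.

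For the 4 abundant genes the fitted differences were smaller than their standard errors in limma. These errors are drawn toward those of the other genes tested, and do not measure the spread of the single gene between mice. The mean level of *Mcpt4* was 344 ± 48.2 per 10000 (SD, n = 3) for WT and 292 ± 63.6 (SD, n = 3) for *Tln1* KO mice (exact two-sided permutation p = 0.4), with a log2 fold change of -0.25 ± 0.40 (SE) in limma. The WT and *Tln1* KO values of *Mcpt4* overlapped, since *Tln1* KO mouse 1 lay above WT mice 1 and 2. *Cpa3* was at 141.9 ± 11.3 and 128.1 ± 23.2 (SD, n = 3 each), with a log2 fold change of -0.16 ± 0.31, *Cma1* at 135.98 ± 12.1 and 128.3 ± 3.83 with -0.08 ± 0.30, and *Tpsb2* at 78.3 ± 6.62 and 77.5 ± 17.1 with -0.03 ± 0.28. The direction of the last 3 depended on the scale. Per transcripts of all genes, which moved the median of all genes from -0.02 to 0.19, their log2 fold changes were 0.07, 0.15 and 0.19, and that of *Mcpt8* was 0.18. *Tpsab1* and *Ctsg* had log2 fold changes of 0.24 ± 0.28 and 0.19 ± 0.23, and *Mcpt8* of -0.02 ± 0.37. The adjusted p values of these 7 genes were 0.952 to 0.997 in limma.

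*Mcpt9* was the only member whose levels did not overlap, with all 3 *Tln1* KO mice (0.397 to 0.551) above all 3 WT mice (0.113 to 0.347). Its means were 0.201 ± 0.127 and 0.477 ± 0.0773 per 10000 (SD, n = 3 each), with p = 0.1 in the exact two-sided permutation test, below which 3 against 3 mice cannot go. In limma its log2 fold change was 1.36 ± 0.39 (SE), with an unadjusted p of 0.007 and an adjusted p of 0.809. Of all 9233 genes tested, 11.3% had no overlap between the genotypes and 5.42% had all *Tln1* KO mice above all WT mice (5.91% below), so 1 of 8 members is close to this background. The values rest on 361 *Mcpt9* transcripts, and the direction was the same without any single mouse, with log2 fold changes of 1.05 to 1.81. In *Tln1* KO mouse 1 the 4 libraries themselves ranged from 0.119 to 0.789. Since 51.2% of its 3′ stretches are shared with *Cma2* or *Mcpt4* in GENCODE M21, the level may also depend on which reads were kept.

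The labels give no batch, but transcript totals under barcodes that held no cell divided the mice into sets. The unused barcodes of WT mice 2 and 3 and *Tln1* KO mouse 2 correlated best with the cells of WT mouse 2 or 3 (mean Spearman correlation 0.70, 0.67 and 0.69). Those of *Tln1* KO mouse 3 correlated best with its own cells (0.88). Those of WT mouse 1 and *Tln1* KO mouse 1 correlated best with the cells of WT mouse 1, but only at 0.36 and 0.37. With the cells of *Tln1* KO mouse 1 they reached 0.33 and 0.29, and with those of *Tln1* KO mouse 2 0.23 each, so this set is less clear. Within the sets, the log2 ratio of *Mcpt4* was 0.28 for *Tln1* KO mouse 1 over WT mouse 1 and -0.36 for *Tln1* KO mouse 2 over the mean of WT mice 2 and 3, so its sign differed. *Tpsb2* likewise was at 0.32 and -0.21. *Cma1* (-0.25 and -0.03) and *Cpa3* (-0.02 and -0.11) had 1 sign in both sets, as did *Tpsab1* (0.56 and 0.18) and *Mcpt9* (0.67 and 1.92). Each of these values compares 1 *Tln1* KO mouse and has no test.

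The summed share of the proteases was 7.28 ± 0.404% in WT and 6.59 ± 1.08% in *Tln1* KO mice (SD, n = 3 each; exact two-sided permutation p = 0.5). In strict cells it was 7.63% and 6.78% (exact permutation p = 0.3), and as a share of all transcripts, Gm genes included, 3.70% and 3.97% (exact permutation p = 0.9). Without cells that had at least 1% macrophage or keratinocyte markers, the difference was -1.08 percentage points (exact permutation p = 0.2).

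The make-up of the protease transcripts does not depend on the total of the other genes. *Mcpt4* held 41.6%, 49.7% and 50.3% of them for WT 1, 2 and 3 and 46.1%, 45.1% and 40.9% for *Tln1* KO 1, 2 and 3. Over all mice *Cpa3* held 17.8% to 21.9%, *Cma1* 16.2% to 23.5% and *Tpsb2* 10.2% to 12.5%, and these 4 genes together 94.5% to 96.9%. Both chymase genes, *Mcpt4* and *Cma1*, made up 62.3% to 67.7%, and both tryptase genes 12.9% to 17.5%. The part of *Tpsab1* was 3.66%, 2.64% and 3.24% in the WT mice and 4.92%, 3.87% and 3.73% in the *Tln1* KO mice. All 3 *Tln1* KO mice thus lay above all 3 WT mice for *Tpsab1*, by 0.994 percentage points in the means (p = 0.1 in the exact permutation test, its lower limit). The difference was 0.621 to 1.23 points without any single mouse, lowest without *Tln1* KO mouse 1. When the mean of the cells' levels was used in place of their sum, this difference was 0.870 points and the groups overlapped (exact permutation p = 0.3). *Mcpt9* was the other member without overlap, at 0.0161% to 0.0490% against 0.0704% to 0.0759% (exact permutation p = 0.1). When the 9233 genes tested were likewise divided by the protease transcripts of the mouse, 10.5% did not overlap between the genotypes, which stands beside this count of 2 of 9 members. For the shares of the other 7 members the genotypes overlapped, with exact permutation p of 0.3 to 0.9. *Tpsb2* was 3.01, 3.88 and 3.39 times *Tpsab1* in the WT mice and 2.55, 2.75 and 3.20 times in the *Tln1* KO mice, which overlapped (exact permutation p = 0.2).

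**Figure D3:**
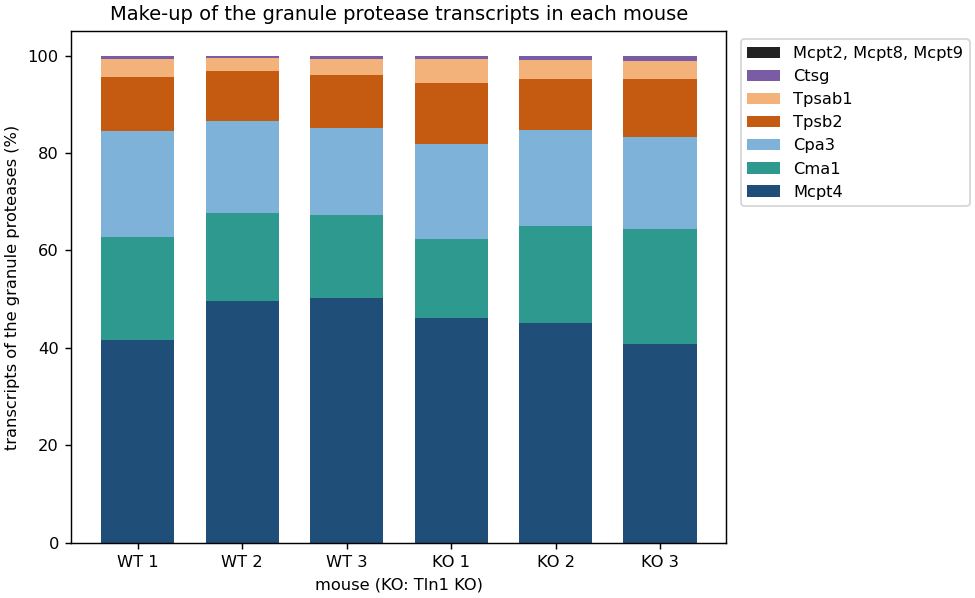
Make-up of the protease transcripts, as the percent of them (y axis) that came from each member in each of the 6 mice (x axis). The stacked bars start with *Mcpt4* at the bottom, at 40.9% to 50.3%, and *Mcpt2*, *Mcpt8* and *Mcpt9* together are too small to see.

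UMIs of the 4 abundant proteases were found together in nearly all MCs. At least 1 UMI of each of *Mcpt4*, *Cma1*, *Cpa3* and *Tpsb2* was found in 2396 of 2477 cells (96.7%), with a median of 3395.5 UMIs outside Gm genes. A further 55 cells had 3 of the 4 genes and a median of 590 UMIs, and the remaining cells had fewer. Barcodes of the MC libraries that held no cell had a UMI of all 4 genes in 27.4% of cases, at a median of 97 UMIs outside Gm genes, and a UMI of *Mcpt4* in 88.6%, *Cpa3* in 66.6%, *Tpsb2* in 53.3%, *Cma1* in 51.1%, *Tpsab1* in 30.1% and *Ctsg* in 4.01%. The source of the transcripts under these barcodes, and their part in the shares of cells, was not tested. With every cell thinned to 1000 UMIs outside Gm genes, which left 2195 MCs and removed 282 shallower ones, *Mcpt4* was found in 100% of the cells of each mouse, *Cpa3* in 98.4% to 100%, *Cma1* in 98.1% to 100% and *Tpsb2* in 95.3% to 98.98%. *Tpsab1* was found in 68.4%, 75.6% and 73.98% of the thinned cells of the WT mice and 77.9%, 69.5% and 72.3% of those of the *Tln1* KO mice. Without thinning its range was 73.96% to 94.9%. *Ctsg* was found in 20.2%, 15.6% and 28.1% of the thinned cells of the WT mice and 18.8%, 20.2% and 31.96% of those of the *Tln1* KO mice (23.96% to 61.9% without thinning). In the Smoothmuscle cells, thinned in the same way to 307 cells, 1 cell had a *Cpa3* UMI and 0 had a UMI of another member.

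The 3 rare members were found in few cells, mostly as single UMIs. *Mcpt9* was found in 278 of 2477 MCs (2.57% to 17.9% of the cells of a mouse), of which 215 had exactly 1 UMI and the highest had 5. *Mcpt8* was found in 3.68% to 5.996% of the cells of a mouse and *Mcpt2* in 0.888% to 6.32%, with at most 5 and 3 UMIs in a cell. Under the barcodes that held no cell these shares were 0.279%, 0.0348% and 0.244%. Those barcodes had a median of 97 UMIs outside Gm genes against 3295 in the MCs, so the shares are not at like depth. Per 10000 transcripts, *Mcpt9*, *Mcpt8* and *Mcpt2* were at 0.264, 0.0329 and 0.231 there and at 0.364, 0.160 and 0.103 in the pooled MCs. Since 2471 of all 2477 MCs had a UMI of *Mcpt4* and 2443 of *Cpa3*, nearly all cells with a rare member had both, with *Cpa3* missing in 2 of the cells with the basophil gene *Mcpt8*. The median *Mcpt4* level was lower in cells with *Mcpt8* than in cells without it in 2 of 6 mice, and likewise in 3 of 6 mice for *Mcpt2* and 3 of 6 for *Mcpt9*. These cells were deeper than the rest, with median UMIs outside Gm genes of 4500, 4710 and 5957 for *Mcpt9*, *Mcpt8* and *Mcpt2*, against 3137 to 3210 in the cells without each gene. After thinning, the shares were 0.510% to 6.54% for *Mcpt9*, 0.382% to 2.08% for *Mcpt8* and 0% to 1.91% for *Mcpt2* over the mice. Among the MCs, other basophil markers were at 5 transcripts in all for *Prss34*, and at levels of 3.65 to 5.93 for *Cd200r3* and 0.349 to 1.13 for *Itga2*. *Itgae*, a marker of mucosal MCs, was at 0.0115 to 0.0693 per 10000.

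**Figure D4:**
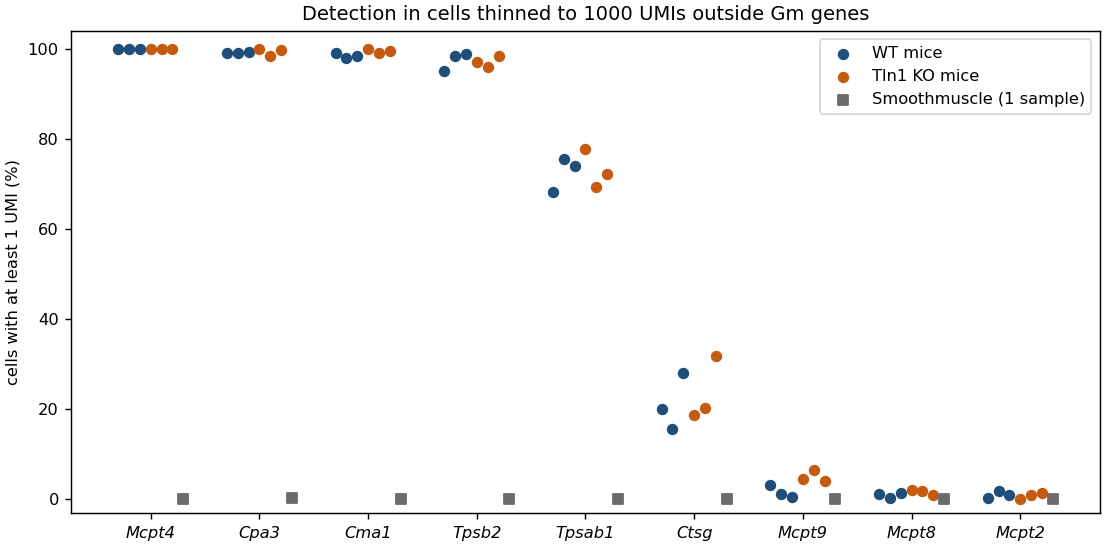
Percent of cells with at least 1 UMI of each protease (y axis) after thinning every cell to 1000 UMIs outside Gm genes, with 1 point per mouse and a square for the Smoothmuscle sample. *Mcpt4*, *Cpa3*, *Cma1* and *Tpsb2* sit between 95.3% and 100% in the MC mice, *Tpsab1* between 68.4% and 77.9% and *Ctsg* between 15.6% and 31.96%.

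The spread between cells was described for the 6 more abundant members after the part due to counting was taken off. In thinned cells the coefficient of variation beyond counting was lowest for *Mcpt4*, with a mean of 0.336 over the 6 mice (0.287 to 0.405). It was 0.484 for *Cma1* (0.395 to 0.575), 0.515 for *Cpa3* (0.369 to 0.659) and 0.609 for *Tpsb2* (0.509 to 0.711). *Tpsab1* varied more, with 1.00 (0.840 to 1.12), and *Ctsg* most of these 6, with 1.62 (1.29 to 2.01). For *Mcpt2*, *Mcpt8* and *Mcpt9* the thinned cells held too few UMIs for this measure, which ran from 0 to 9.90 over their mice. *Tpsb2* and *Tpsab1*, although neighbours on chromosome 17, thus differed in spread in each of the 6 mice without overlap of their ranges. Between the cell at the 25th and the cell at the 75th percentile, the level of *Mcpt4* differed 1.49 to 1.80 times within a mouse, and that of *Tpsab1* 5.24 to 9.54 times in the 5 mice in which the lower value was above 0. The median level of *Tpsab1* was 15.0 to 22.3 per 10000 in the 6 mice. Of the thinned cells, 22.1% to 31.6% had 0 *Tpsab1* UMIs, whereas equal levels in all cells would give 2.10% to 11.1%. For *Ctsg*, 68.04% to 84.4% had 0 UMIs, against 55.3% to 80.4% at equal levels. Among all cells before thinning, the highest had 45 *Ctsg* UMIs.

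The proteases together made up a median of 6.37%, 7.47% and 7.98% of the transcripts of a cell for WT 1, 2 and 3 and 6.61%, 5.26% and 5.78% for *Tln1* KO 1, 2 and 3. The middle 50% of the cells lay between 4.76% and 6.95% in *Tln1* KO mouse 3 and between 4.196% and 8.401% in WT mouse 1, and the highest cell of any mouse reached 19.5%. In 81 of 2477 cells the share was under 2%, among them 31 of WT mouse 1. All 4 barcodes with over 50000 transcripts (0.269% to 1.53%) and most of the 9 MC barcodes outside the set of their library were also among them. These 81 cells had a median of 1307 UMIs outside Gm genes, against 3341 in the others. Their MC markers other than proteases were also lower, with a median of 0.197% of transcripts against 1.35%. At least 1% of macrophage, keratinocyte or fibroblast markers was found in 27 of the 81 cells and in 66 of the other 2396.

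Between cells of the same mouse, the levels of the chymases and of *Cpa3* varied together. *Cma1* and *Cpa3* had the highest Spearman correlation of the 15 pairs of the 6 more abundant members, with 0.71, 0.67 and 0.57 for WT 1, 2 and 3 and 0.52, 0.63 and 0.53 for *Tln1* KO 1, 2 and 3 (272 to 934 cells a mouse). After thinning to 1000 UMIs it was lower, with a mean of 0.46 over the 6 mice (0.35 to 0.56). *Mcpt4* and *Cma1* came next, with a mean of 0.50 before and 0.43 after thinning (0.41 to 0.48), and *Mcpt4* and *Cpa3* with 0.43 and 0.38. *Tpsb2* correlated with *Cma1* at 0.43 and 0.35, with *Mcpt4* at 0.39 and 0.31, with *Cpa3* at 0.38 and 0.27 and with its neighbour *Tpsab1* at 0.34 and 0.26. *Tpsab1* did not vary with the chymases or *Cpa3* to a like extent. Its means before and after thinning were 0.05 and -0.01 with *Mcpt4*, 0.15 and 0.08 with *Cma1*, and -0.002 and -0.07 with *Cpa3*. With *Cma1* it was above 0 in 6 of 6 mice before thinning and in 5 of 6 after. For *Ctsg* the means after thinning were -0.04 to 0.11, and its counts are sparse. In 10 of the 15 pairs the correlation was above 0 in all 6 mice, and in 8 after thinning. These values are descriptions, since the cells of a mouse share libraries and differ in depth: *Cpa3* and *Cma1* also correlated with the transcripts of the cell outside Gm genes, at means of 0.48 and 0.43, whereas *Mcpt4* had 0.04 and *Tpsab1* 0.06.

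**Figure D5:**
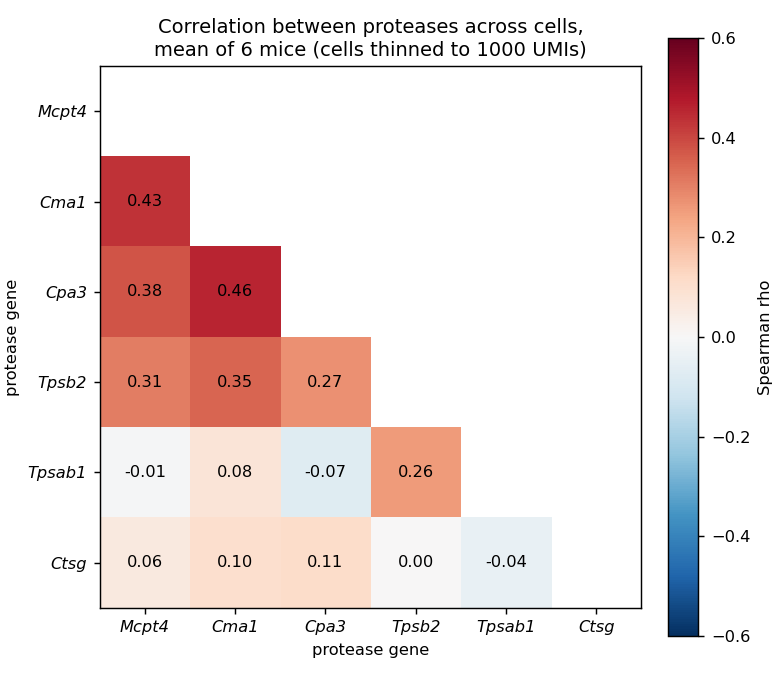
Mean over the 6 mice of the Spearman correlation between proteases (both axes) across cells thinned to 1000 UMIs outside Gm genes, as colour and printed value. The block of *Mcpt4*, *Cma1*, *Cpa3* and *Tpsb2* runs from 0.27 to 0.46, and *Tpsab1* is above 0.1 only with *Tpsb2*, at 0.26.

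Outside the 10 members, the genes whose level per cell was most like the summed level of the proteases were ranked over 303 genes found in at least 25% of thinned cells of every mouse. *Srgn*, which encodes the core protein of serglycin, the proteoglycan that holds these proteases in the granule, was first with a mean Spearman correlation of 0.34 over the 6 mice (0.22 to 0.49). *Apoe* (0.30), an apolipoprotein gene, *Serpinb1a* (0.27), whose product inhibits chymotrypsin-like and elastase-like serine proteases, and *Itm2b* (0.25) followed. The other 6 of the first 10 genes were *Slc29a1*, a nucleoside transporter gene, *Serinc3*, *Il1rl1*, the gene of the IL-33 receptor, *Rac2*, *Fcer1g*, the common γ chain of Fc receptors, and *Ldha*, with means of 0.18 to 0.20. The lowest was the mitochondrial ribosomal RNA gene *mt-Rnr2*, with -0.30.

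The genes that activate, store or hold back these proteases were measured beside them. Of 17 genes for activation and storage, 16 were tested between genotypes and 0 were called, while 4 had an unadjusted p under 0.05 in limma (as had 5.21% of all genes tested) and the median log2 fold change was -0.02, close to the -0.02 of all genes. These 4 were *Lyst*, a regulator of lysosome-related organelles, at 1.00 ± 0.29 (SE), the cathepsin genes *Ctsb* and *Ctsl* at -0.89 ± 0.26 and -1.02 ± 0.42, and *Lamp1*, a lysosomal membrane protein gene, at -0.69 ± 0.21, with adjusted p of 0.809 to 0.906 in limma. In Smoothmuscle cells *Ctsb*, *Ctsl* and *Lamp1* were at 2.59, 3.36 and 4.38 per 10000, against 1.42 to 3.88, 0.0849 to 0.489 and 1.61 to 3.79 in the MC mice. Macrophage markers moved in the same direction, with a median log2 fold change of -2.17 over 9 tested genes and 3 of them at an unadjusted p under 0.05 in limma, and their part in these values was not tested. *Srgn* was at 31.3 to 43.7 per 10000 over the 6 mice, *Hdc*, the histidine decarboxylase gene, at 51.2 to 71.9, and *Ctsc*, whose product trims the pro-peptides of chymases and cathepsin G, at 1.77 to 2.36. Of 16 inhibitor genes, 10 were tested and 0 called, with 4 at an unadjusted p under 0.05 (against 5.21% of all genes tested) and a median log2 fold change of -0.31. These 4 were *Cst3*, *Serpinb8*, *Serping1* and *Timp2*, at -0.84, -1.27, -2.48 and -1.19. *Serping1* and *Timp2* had levels of 9.91 and 7.03 per 10000 in Smoothmuscle cells against at most 0.416 and 1.15 in MC mice. The 5 tested fibroblast markers had a median log2 fold change of -3.79 in the same comparison, with 5 of 5 at an unadjusted p under 0.05 and adjusted p of 0.549 to 0.868 in limma, and the part of fibroblast RNA in the inhibitor values was not tested. *Serpinb1a* was the most abundant inhibitor gene, with 47.03 to 63.5 per 10000 in MC mice and 0.0556 in Smoothmuscle cells.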

How the data were processed

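Sorted ear skin MCs of 3 WT and 3 *Tln1* KO mice (30 libraries) and Smoothmuscle cells (4 libraries) were measured by mCEL-Seq2. The mouse of a library was read from the number after the genotype in its title, which the labels do not explain in words. Per the labels and the methods, the authors aligned reads with BWA (0.6.2-r126 in the submitters' processing notes, which also name bcl2fastq 2.17.1.14 and mm10) to mouse gene models, discarded reads that matched more than 1 place, merged gene loci that largely overlap, and counted UMIs in sense direction. The values deposited by the authors are transcript counts per gene and cell barcode, made from UMI counts by a binomial correction and not scaled. Undoing that correction for 4096 possible UMIs of 6 bases gave whole UMIs in all 34 tables, within 1e-06.

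Cells with over 1000 transcripts and at most 2% from *Kcnq1ot1* were kept (0 MCs were lost to the latter), and no doublet caller was run, since doublets were excluded in the sort. Depth ranged from 1412800 to 6104250 transcripts per MC mouse. Sums over all cells of a mouse were divided by the total outside Gm genes. For genes that reached 10 transcripts in 3 or more mice, limma 3.58.1 (R 4.3.3, trended prior) compared log2 values per 1000000 with a pseudocount of 1, with Benjamini-Hochberg adjustment at 0.05. This test on the corrected values took the place of the count-based tests planned first, which were not run, and whole UMIs entered the same limma fit as an alternative. In simulated data of 3 against 3 mice with 200 changed genes and a dispersion of 0.02, it found 82% of genes changed 2-fold (3 false calls among 9277 genes tested) and 5.5% of genes changed 1.5-fold (0 false calls among 9304). The median error of these simulated log2 fold changes was 0.13, whereas the members had standard errors of 0.23 to 0.40 in the real fit. The shares found may thus be lower in the real data, where they were not measured. Single values were compared by exact two-sided permutation of mice, and nothing in the labels says whether the mice were handled together. For detection and spread, cells were thinned to 1000 UMIs outside Gm genes. Sequences were read with Biopython 1.88 from GENCODE M21 (GRCm38) and RefSeq (GRCm38.p6) tables. The genes named are the 10 members, the 10 genes most like their summed level, and genes of lists for the protease loci, activation and storage, inhibitors and cell type markers. Members and lists were chosen with earlier results of these data known. Alternatives covered the scaling, filters, cells, libraries, mice and correlation measures. Columns of barcodes that held no cell entered no comparison of genotypes.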

Additional observations from a re-analysis of the deposited data

Results flagged for a closer look

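Among 60 groups of 4 to 10 libraries (6 mice with their members and sum), 6 (10%) held a library far from the rest by Dixon's test. Chance gives about 1 in 20 for each group. The groups of a mouse share its libraries and the sum is made of the members, so they are not independent. The 10% is thus no test against this rate. The *Mcpt4* level was 313 per 10000 in library 2 of WT mouse 3, against 412 to 422 in the other 3 libraries, and 1 barcode of that library held 15.2% of its transcripts at 1.09% protease transcripts. Library 8 of *Tln1* KO mouse 3 was lowest of 10 for *Mcpt4* (112.3, others 217 to 273), *Cma1* (68.6, others 130 to 161.9), *Cpa3* (56.9, others 96.7 to 135.4), *Ctsg* (1.94, others 5.24 to 7.68) and the sum (2.84%, others 5.44% to 6.74%). In that library 2 barcodes with over 50000 transcripts held 44.8% and 9.67% of the transcripts, at 0.269% and 0.598% protease transcripts.

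Barcodes that held no cell also carried protease transcripts. In the MC libraries 2871 such barcodes had 303601 transcripts outside Gm genes, with *Mcpt4* at 375 per 10000, *Cpa3* at 145.02, *Tpsb2* at 94.1, *Cma1* at 89.98, *Tpsab1* at 37.9 and *Ctsg* at 4.08. This was 3.96 *Mcpt4* transcripts per unused barcode, against 111.2 per cell. The cells themselves, pooled over all mice, had 278 for *Mcpt4*, 121.8 for *Cpa3*, 72.4 for *Tpsb2*, 132.2 for *Cma1* and 23.2 for *Tpsab1*. In the Smoothmuscle libraries 376 unused barcodes with 43004.7 transcripts had 0 of each member. *Mcpt2* had 7, *Mcpt9* 8 and *Mcpt8* 1 transcript under the unused barcodes of the MC libraries. This was 0.231, 0.264 and 0.0329 per 10000, against 0.103, 0.364 and 0.160 in the pooled cells. On these few transcripts, *Mcpt2* was not higher in the cells than under the unused barcodes.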

How the results depend on the processing

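No setting called a member between genotypes, and the adjusted p of *Mcpt9* in limma ranged from 0.141 to 1.00 over 21 settings. The count-based tests of the plan were not run, so every call rests on limma. Of all genes, 0 were called in the comparison as reported, 8 without *Tln1* KO mouse 1 (0 to 8 without any single mouse), 3 with the barcode-defined sets of mice as a block, 44 per transcripts of all genes and 0 with TMM (517 at an unadjusted p under 0.05). Same-numbered mice of the genotypes did not vary together (correlations 0.18, -0.40 and -0.44), and with the mouse number as a replicate block 0 genes were called (391 unadjusted). Log2 fold changes near 0 turned sign in some settings. Per transcripts of all genes, which moved the median of all genes from -0.02 to 0.19, *Cma1* was at 0.15, *Tpsb2* at 0.19, *Cpa3* at 0.067 and *Mcpt8* at 0.18. *Tpsb2* was at 0.017 without library 8 of *Tln1* KO mouse 3 and at 0.021 with the sets as a block, and -0.21 to 0.057 without any single mouse. *Mcpt8* was at 0.010 with TMM, 0.017 where cells had to exceed 1000 transcripts after removal of Gm genes, 0.016 without library 8 and 0.36 with the sets as a block, and -0.27 to 0.33 without any single mouse, and *Tpsab1* at -0.0083 to 0.42. The summed share differed by -0.689 percentage points as reported, by 0.261 per transcripts of all genes, by -1.39 with the median and -1.10 with the mean of the cells' levels (exact permutation p = 0.2 each), and by -1.27 to -0.213 without any single mouse. Members without overlap in the make-up numbered 2, 1 with the mean or the median of the cells' levels, and 2 to 3 without any single mouse. Members found in at least 90% of the cells of every mouse numbered 4, and 2 when at least 2 UMIs were asked for. Where no cause is shown by the setting itself, the cause was not tested. In all, 333 values stayed, 26 moved and 17 turned sign. Depth limits *Mcpt2*, *Mcpt8* and *Mcpt9* most, with 102.02 to 361 transcripts in all MCs.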
